A study of Mus musculus with 9 samples.

Results

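The 9 genes of oxidant production in the mouse colon described here are 8 that encode subunits or maturation factors of NADPH oxidases (Nox1, Noxo1, Noxa1, Duox2, Duoxa2, Cybb, Cyba and Ncf1) and Nos2, the inducible nitric oxide synthase. They were taken by symbol from a table of 35315 genes, and all 9 were found. RNA from the colon of wild-type C57BL/6J mice aged 8 weeks was sequenced in 9 libraries, 3 per group. Control mice drank normal water, and no injection is listed for them. DSS mice drank water holding 2.5% dextran sulfate sodium (DSS), which damages the lining of the colon and causes colitis, for 7 days and were given solvent intravenously on days 2, 4 and 6. GsMTx4 mice had the same DSS water and, on the same days, GsMTx4 at 10 mg/kg by the same route. GsMTx4 is a peptide from spider venom that inhibits mechanosensitive cation channels, among them Piezo1. DSS and the injections therefore cannot be told apart in any comparison with Control, and since nothing in the labels ties the replicates to different mice, p-values measure only the spread between these libraries, which may be technical.

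NADPH oxidases are membrane enzymes that pass electrons from NADPH to oxygen and so make superoxide or hydrogen peroxide. In the colon, NOX1 with its organizer NOXO1 and its activator NOXA1 works in epithelial cells, DUOX2 with its maturation factor DUOXA2 releases hydrogen peroxide at the epithelial surface, and the phagocyte oxidase, built on CYBB and its membrane partner CYBA with the cytosolic organizer NCF1, serves neutrophils and macrophages. CYBA is also the membrane partner of NOX1. NOS2 makes nitric oxide from arginine and is induced by inflammatory cytokines.

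Levels are in FPKM, fragments scaled by transcript length and library size. The smallest step between low values put the libraries at about 15100000 (GsMTx4 3) to 21500000 (DSS 2) fragments, an estimate, since no depth was given. At that depth Nox1 in DSS rests on about 89, 21 and 7 fragments, and no other value of the 9 genes on fewer than 102. Between 12830 and 14036 genes reached 1 FPKM. Differences are log2 fold changes of FPKM + 1, with standard errors and two-sided adjusted p-values from limma (n = 3 libraries per group), and the threshold was an adjusted p of 0.05 over 14360 tested genes. The labelled tissue was checked against epithelial markers: Epcam stood at 521 to 826 FPKM and the colonocyte transporter Slc26a3 at 76.0 to 146 FPKM. The summed pan-epithelial markers spanned 4098 to 5324 FPKM in Control, 3888 to 5359 in DSS and 4118 to 5253 in GsMTx4, and 0 of 6 passed limma's test in any comparison, also at an unadjusted p under 0.05 (0). Tissue was sequenced whole, so fewer cells of a type and less RNA per cell cannot be told apart.

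In DSS against Control 6 of the 9 genes rose and 2 fell, where 6.41% of all tested genes were higher and 10.7% lower. Nos2, Duoxa2 and Duox2 rose most and Nox1 fell most, while the NOX1 organizer Noxo1 did not pass. In GsMTx4 against DSS, 1 gene was higher and 2 were lower, where 6.66% of all tested genes were higher and 5.62% lower. In GsMTx4 against Control, 1 gene was higher and 0 were lower by limma (3 and 0 at an unadjusted p under 0.05), where 0.188% of all tested genes were higher and 0.0487% lower. The median log2 fold change of the 9 genes was 0.68, -0.62 and 0.03 in these 3 comparisons, beside -0.17, 0.07 and -0.08 over all tested genes. The first and second comparisons share the DSS libraries, and each is therefore given by its own values.

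**Figure D1:**
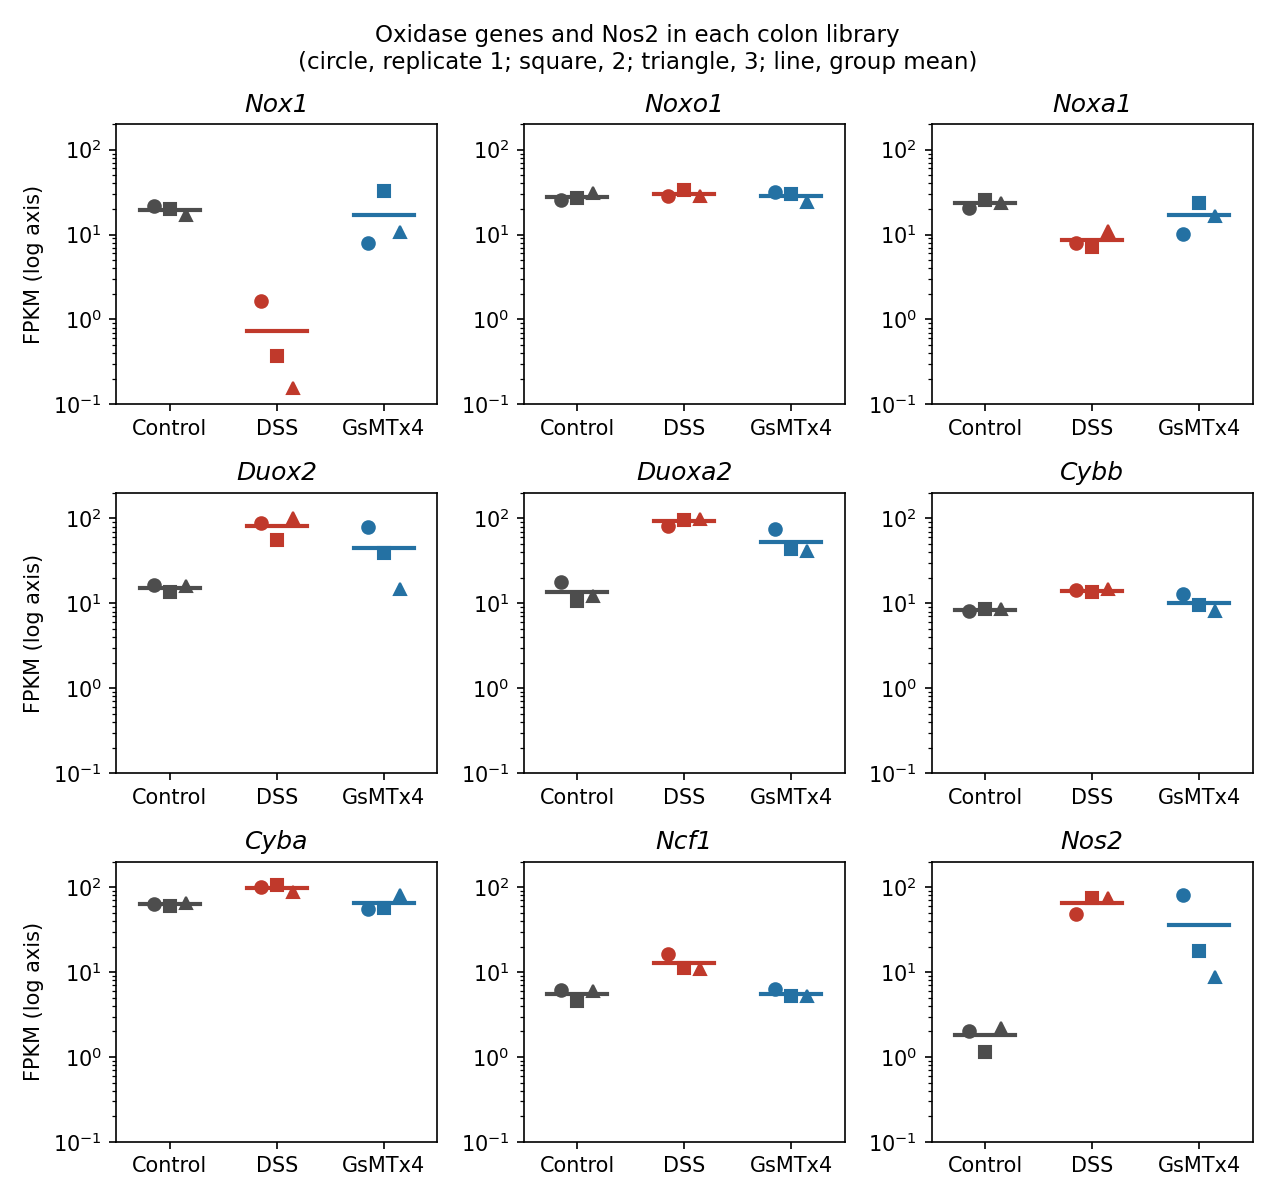
FPKM of the 9 genes (log axis, 1 panel per gene) in the Control, DSS and GsMTx4 libraries; symbols mark the replicate number and lines the group mean (n = 3). Nox1 lies below 2 FPKM in all 3 DSS libraries and Noxo1 between 24.0 and 33.4 FPKM throughout, while Nos2 and Duox2 spread widely within GsMTx4.

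The catalytic subunit gene Nox1 (ENSMUSG00000031257, chromosome X, 134086421 to 134221956, GRCm38) was at 21.7, 19.8 and 17.1 FPKM in Control, 1.67, 0.375 and 0.157 FPKM in DSS, and 7.95, 32.2 and 10.6 FPKM in GsMTx4. Every DSS library lay below every Control and GsMTx4 library, and the GsMTx4 libraries lay on both sides of the Control range. Separation of DSS from Control was common: every DSS library lay below every Control library in 33.6% of all tested genes, and above in 13.5%. Shares for separations involving GsMTx4 are not given here. Mean levels were 19.5 ± 2.32, 0.733 ± 0.817 and 16.9 ± 13.3 FPKM (SD), so Control was 26.6-fold and GsMTx4 23.1-fold above DSS; these means rest on few libraries, with 73.4-fold and 63.7-fold without DSS 1, and 12.7-fold for GsMTx4 without GsMTx4 2. The difference was -3.66 ± 0.47 in DSS against Control (adjusted p = 0.00207) and 3.22 ± 0.47 in GsMTx4 against DSS (adjusted p = 0.00506). In GsMTx4 against Control it was -0.44 ± 0.47 (adjusted p = 0.788), with a 95% interval from -1.49 to 0.62. The Nox1 span overlaps Xkrx on the same strand and Arl13a on the other, and whether counting used strand is not given in the sources used here.

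Noxo1, which encodes the adaptor that organizes the NOX1 complex (ENSMUSG00000019320, chromosome 17, 24696234 to 24700529), was at 25.8, 27.2 and 30.6 FPKM in Control, 28.3, 33.4 and 28.4 FPKM in DSS, and 32.1, 29.6 and 24.0 FPKM in GsMTx4. All 3 groups overlapped. Its difference was 0.11 ± 0.15 in DSS against Control (adjusted p = 0.629; 95% interval -0.23 to 0.43) and -0.08 ± 0.15 in GsMTx4 against DSS (adjusted p = 0.763; -0.41 to 0.26). It overlaps Tbl3 on the opposite strand over 2581 bases, where reads of the 2 genes cannot be told apart without strand.

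Noxa1, the activator gene of the complex (ENSMUSG00000036805, chromosome 2, 25085667 to 25095149), was at 20.8, 25.3 and 23.8 FPKM in Control, 7.88, 7.05 and 11.1 FPKM in DSS, and 10.2, 23.7 and 16.6 FPKM in GsMTx4. The DSS libraries lay below Control without overlap, as in 33.6% of all tested genes, and GsMTx4 1 fell within the DSS range. The difference was -1.35 ± 0.27 in DSS against Control (adjusted p = 0.0119), and adjusted p = 0.051 without Control 2. Against DSS, GsMTx4 differed by 0.83 ± 0.27 (adjusted p = 0.0772).

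Because the subunits differed so much in how far they moved, the ratio between partners was computed within each library. Noxo1 stood at 1.19, 1.38 and 1.79 times Nox1 in Control, at 17.0, 89.2 and 181 times in DSS, and at 4.04, 0.919 and 2.26 times in GsMTx4. Noxa1 stood at 0.957, 1.28 and 1.39 times Nox1 in Control, at 4.72, 18.8 and 70.5 times in DSS, and at 1.29, 0.735 and 1.56 times in GsMTx4. Both ratios were higher in every DSS library than in any other library, and both were lowest in GsMTx4 2, the library with the highest Nox1. Since Noxo1 varied little (24.0 to 33.4 FPKM), its ratio repeats the Nox1 levels in reverse order and is no further result. The size of the DSS ratios is uncertain, with Nox1 on about 89, 21 and 7 fragments.

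**Figure D2:**
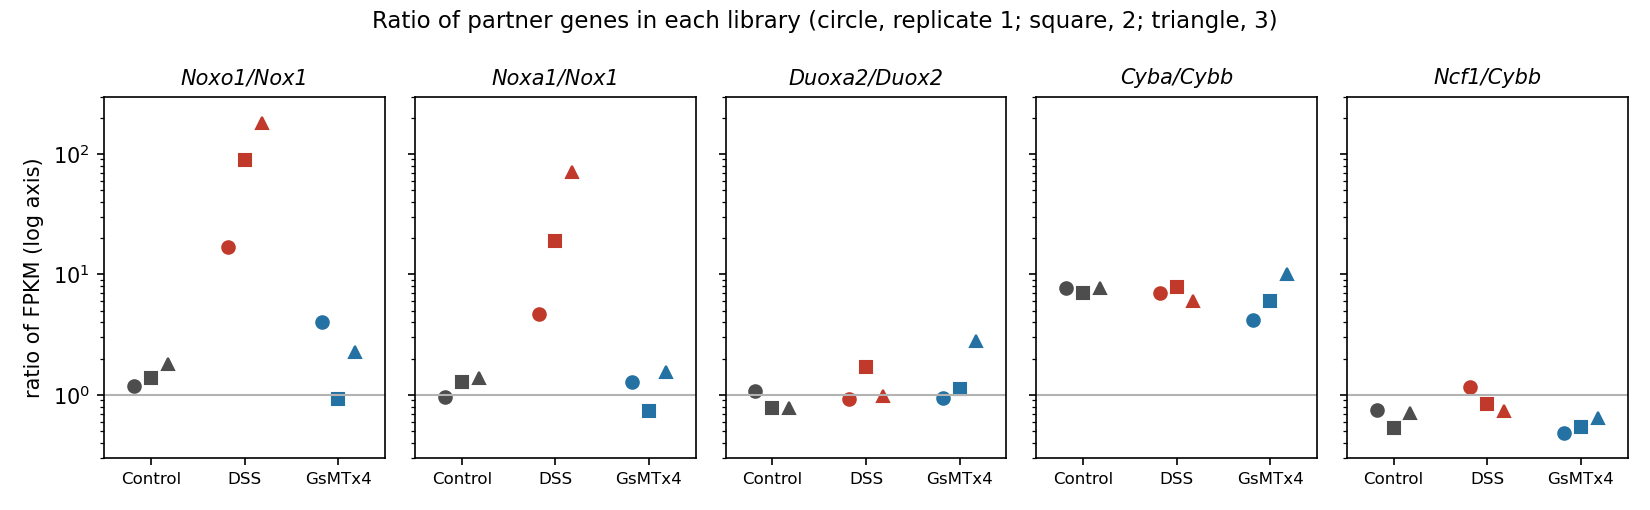
Ratio of FPKM between partner genes in each library (log axis; symbols mark the replicate number, the grey line a ratio of 1). The ratios to Nox1 reach 181 and 70.5 in DSS 3, where Nox1 rests on about 7 fragments, while Duoxa2 to Duox2 stays between 0.778 and 2.81.

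The 250 bases before the RefSeq start (GRCm38.p6) of Nox1 and Noxa1 are shown because these 2 subunit genes fell in DSS. Capitals mark matches to motifs searched on both strands. The Nox1 window, chrX:134111855-134112104 on the minus strand, holds a CDX site (letters TTTATG, in 10.8% of 32851 promoters of this length) 180 bases before the start and an NF-kB consensus (3.9%) 91 bases before it. This RefSeq start lies inside the longer GENCODE span given above, whose upstream end is 109852 bases from the window. The Noxa1 window, chr2:25095206-25095455 on the minus strand, holds an NF-kB consensus 249 bases and a GATA site (letters AGATAA, 9.99%) 73 bases before its start. Neither window overlaps an annotated exon, and a match is only a description of the letters.
Nox1: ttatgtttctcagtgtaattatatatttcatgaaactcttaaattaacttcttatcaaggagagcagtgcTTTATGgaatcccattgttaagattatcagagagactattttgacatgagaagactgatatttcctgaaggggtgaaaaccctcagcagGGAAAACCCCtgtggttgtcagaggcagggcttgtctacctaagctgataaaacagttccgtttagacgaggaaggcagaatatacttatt
Noxa1: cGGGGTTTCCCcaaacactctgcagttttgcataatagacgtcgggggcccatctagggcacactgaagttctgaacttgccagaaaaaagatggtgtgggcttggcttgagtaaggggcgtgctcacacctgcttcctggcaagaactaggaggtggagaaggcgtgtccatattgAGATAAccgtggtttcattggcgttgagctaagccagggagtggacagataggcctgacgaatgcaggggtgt

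Crypt cell markers moved with Nox1. Their summed level was 31.4 to 43.8 FPKM in Control, 5.98 to 14.4 FPKM in DSS, and 14.99, 45.2 and 20.1 FPKM in GsMTx4 1, 2 and 3, with the stem cell marker Lgr5 at most at 0.0227 FPKM in DSS against 0.840 to 1.01 FPKM in Control. Mki67 made up the largest part of each sum. It was at 14.9 to 29.9 FPKM in Control, 5.31 to 13.4 FPKM in DSS and 11.9 to 33.8 FPKM in GsMTx4. Of 4 tested crypt markers 3 fell in DSS, while Mki67 did not pass there (-1.21, adjusted p = 0.0834). In GsMTx4 against DSS 1 of the 4 rose (3 without GsMTx4 1, and 0 without DSS 2, GsMTx4 2 or GsMTx4 3). Markers of distal colon position summed to 179 to 254 FPKM in Control, 64.7 to 173 FPKM in DSS and 190 to 339 FPKM in GsMTx4. In the comparison of DSS with Control 0 of 3 passed, and 2 were lower at an unadjusted p under 0.05. The other, Hoxd13, differed by 0.74 (adjusted p = 0.597). It spread widely, at 56.4, 4.73 and 8.23 FPKM in Control and 52.1, 36.8 and 6.06 FPKM in DSS. In GsMTx4 against DSS 1 was higher, a call lost whichever 1 of the 9 libraries was left out. The part of either list in the Nox1 result was not tested. Absorptive colonocyte markers moved in both directions: in DSS against Control Aqp8 differed by -1.77 (adjusted p = 0.00753) and Car1 by 1.70 (0.0335; lost without Control 1 or 3 or DSS 1 or 2), and in GsMTx4 against DSS by 1.68 (0.0124) and -2.40 (0.0125). In all, 1 of 6 was higher and 1 lower in the first comparison and 2 were higher and 2 lower in the second (1 higher whichever library was left out, and 1 lower without Control 2, DSS 1, DSS 2 or GsMTx4 2). Their part in the Nox1, Noxa1, Duox2 and Duoxa2 results was not tested. With values centred on the pan-epithelial markers, Nox1 differed by -3.63 (adjusted p = 0.00127) and 3.28 (adjusted p = 0.00354).

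The hydrogen peroxide source Duox2 (ENSMUSG00000068452, chromosome 2, 122279247 to 122298449) was at 16.4, 13.4 and 15.9 FPKM in Control, 88.5, 55.6 and 102.5 FPKM in DSS, and 80.2, 39.2 and 14.6 FPKM in GsMTx4. DSS lay above Control in all libraries, as in 13.5% of all tested genes, while the GsMTx4 libraries reached from the Control range into the DSS range. DSS was 5.4-fold above Control by group means, with a difference of 2.32 ± 0.50 (adjusted p = 0.0156), which became adjusted p = 0.0596 without Control 2 and 0.05 without Control 3. Between GsMTx4 and DSS the difference was -1.12 ± 0.50 (adjusted p = 0.169; 95% interval -2.25 to 0.01).

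Duoxa2, whose product brings DUOX2 to the cell surface (ENSMUSG00000027225, chromosome 2, 122298900 to 122302885), was at 17.7, 10.5 and 12.3 FPKM in Control, 82.2, 95.3 and 99.8 FPKM in DSS, and 75.5, 43.5 and 41.1 FPKM in GsMTx4. The 3 groups did not overlap, with GsMTx4 between the others. DSS lay above Control without overlap in 13.5% of all tested genes, and the share for all 3 groups was not computed. The difference was 2.71 ± 0.26 in DSS against Control (adjusted p = 0.000696) and -0.83 ± 0.26 in GsMTx4 against DSS (adjusted p = 0.0651). Duoxa2 was the 1 gene of the 9 that passed in GsMTx4 against Control, at 1.88 ± 0.26 (adjusted p = 0.026; 3.94-fold by group means). The threshold was missed without Control 2 (adjusted p = 0.148), Control 3 (0.14), DSS 2 (0.057), GsMTx4 1 (0.0973) or GsMTx4 2 (0.14). Duoxa2 shares 695 bases with Duoxa1 of the opposite strand, which was at most at 1.34 FPKM.

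Duoxa2 and Duox2 are transcribed away from each other from starts 450 bases apart in the annotation, and their ratio moved less than the levels: Duoxa2 was 0.778 to 1.08 times Duox2 in Control, 0.929 to 1.71 times in DSS and 0.941 to 2.81 times in GsMTx4. The 2.81 is GsMTx4 3, where Duox2 was at the Control level and Duoxa2 was not. The 250 bases before the Duoxa2 start, chr2:122298650-122298899 on the plus strand, lie wholly between the genes and are shown because both genes rose. None of the 4 motifs searched (STAT, letters TTCNNNGAA; NF-kB; CDX; GATA) was found in these letters.
Duoxa2: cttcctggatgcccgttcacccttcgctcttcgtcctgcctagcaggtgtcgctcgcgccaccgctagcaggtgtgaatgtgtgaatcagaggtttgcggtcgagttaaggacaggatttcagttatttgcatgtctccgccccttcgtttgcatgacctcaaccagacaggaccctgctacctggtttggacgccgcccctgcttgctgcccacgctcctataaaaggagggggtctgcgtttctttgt

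The phagocyte oxidase genes Cybb, Cyba and Ncf1 rose less far, and in all 3 genes every DSS library lay above every Control library, as in 13.5% of all tested genes (in 33.6% every DSS library lay below). Cybb, the catalytic subunit gene (ENSMUSG00000015340, chromosome X, 9435252 to 9487771), was at 8.12, 8.65 and 8.52 FPKM in Control, 14.2, 13.5 and 14.6 FPKM in DSS, and 13.0, 9.48 and 8.15 FPKM in GsMTx4. GsMTx4 1 came near the DSS range and GsMTx4 3 lay within that of Control. The difference was 0.68 ± 0.16 in DSS against Control (adjusted p = 0.0209), a 1.67-fold rise by group means. It was lost without Control 1 (adjusted p = 0.0699), Control 2 (0.0698), Control 3 (0.0681), DSS 1 (0.0501) or DSS 3 (0.055), and on values rescaled to TPM (0.0824). In GsMTx4 against DSS the difference was -0.45 ± 0.16 (adjusted p = 0.0938).

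Cyba, the membrane partner gene (ENSMUSG00000006519, chromosome 8, 122424776 to 122432930), had the highest mean level of the 9 in every group, though not in every library: 63.0, 60.3 and 65.2 FPKM in Control, 99.6, 106.3 and 88.6 FPKM in DSS, and 54.9, 56.8 and 81.7 FPKM in GsMTx4. DSS lay above both other groups, and GsMTx4 3 stood apart from the other GsMTx4 libraries. The difference was 0.63 ± 0.17 in DSS against Control (adjusted p = 0.0357) and -0.62 ± 0.17 in GsMTx4 against DSS (adjusted p = 0.0471). The rise was lost without Control 1 (adjusted p = 0.0966), Control 2 (0.122), Control 3 (0.0901), DSS 1 (0.0797) or DSS 2 (0.0953), with no filter on low values (0.0658) and with pan-epithelial centring (0.0536). The fall was lost without any 1 library other than GsMTx4 3 (0.0692 to 0.151), with no filter (0.0851), median-of-ratios scaling (0.058), pan-epithelial centring (0.108) or a fit of the compared groups only (0.137). Cyba lies within the predicted gene Gm20388 of the opposite strand.

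Ncf1, the cytosolic organizer gene (ENSMUSG00000015950, chromosome 5, 134220053 to 134229625), was at 6.09, 4.56 and 5.98 FPKM in Control, 16.4, 11.3 and 10.7 FPKM in DSS, and 6.35, 5.18 and 5.22 FPKM in GsMTx4. The DSS libraries stood above both other groups, which overlapped. The difference was 1.06 ± 0.18 in DSS against Control (adjusted p = 0.0062; 2.31-fold by group means) and -1.05 ± 0.18 in GsMTx4 against DSS (adjusted p = 0.00919). Both calls held with any 1 library left out, at adjusted p up to 0.0318 and 0.0433. Ncf1 shares 4303 bases with Gtf2ird2 of the opposite strand. In GsMTx4 against Control the difference was 0.01 (adjusted p = 0.989).

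By group, leukocyte markers moved in the same direction as these 3 genes, but not in every library. In GsMTx4 1 Cybb was at 13.0 FPKM, near the DSS range, while the pan-leukocyte sum was 84.5 FPKM, within the Control range. Pan-leukocyte markers summed to 82.3 to 89.5 FPKM in Control, 133 to 181 FPKM in DSS and 76.4 to 103 FPKM in GsMTx4, with 4 of 5 higher in DSS (1 without Control 2, 2 without Control 3) and 3 of 5 lower in GsMTx4 against DSS (1 without GsMTx4 2). Of all tested genes 6.41% were higher in DSS against Control and 5.62% lower in GsMTx4 against DSS. Neutrophil markers rose in DSS in 5 of 6 tested, but Il1r2 among them reached 1 FPKM only in the DSS libraries. It was thus tested only because it was high there. These markers summed to 70.3 to 90.9, 627 to 1128 and 288 to 550 FPKM, but most of each sum was Ly6g, at 67.4 to 88.8, 472 to 1036 and 278 to 544 FPKM. The neutrophil protein gene S100a8 was at 0.0735 to 0.191 FPKM in Control, 28.1 to 83.2 FPKM in DSS, and 11.2, 0.996 and 0.893 FPKM in GsMTx4 1, 2 and 3. Ly6g did not follow S100a8 within GsMTx4: it was highest in GsMTx4 3 (544 FPKM), where S100a8 was lowest. It also stood at 67.4 to 88.8 FPKM in Control, where S100a8 was nearly absent, so the sum is no clear measure of neutrophils. Monocyte and macrophage markers summed to 295 to 344, 409 to 549 and 271 to 353 FPKM, with 3 of 10 higher in DSS (1 without Control 1 or 2, 0 without Control 3 or DSS 3). The part of these cells in the result was not tested. With values centred on the pan-leukocyte markers, DSS against Control gave -0.11 for Cybb (adjusted p = 0.657), -0.16 for Cyba (0.526) and 0.27 for Ncf1 (0.232), on a scale that moved the median of all genes by -0.79, so that a rise smaller than this shift changes sign by construction; 77.2% of all tested genes were lower and 1.44% higher there.

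Nos2 (ENSMUSG00000020826, chromosome 11, 78920787 to 78960254) was at 2.01, 1.16 and 2.22 FPKM in Control, 48.7, 74.2 and 74.0 FPKM in DSS, and 80.6, 17.9 and 8.84 FPKM in GsMTx4. All DSS and GsMTx4 libraries lay above Control, GsMTx4 1 lay above every DSS library, and GsMTx4 2 and 3 lay below. DSS lay above Control in this way in 13.5% of all tested genes, and the share for GsMTx4 was not computed. Group means were 1.80 ± 0.561, 65.6 ± 14.7 and 35.8 ± 39.1 FPKM (SD), so DSS was 36.5-fold and GsMTx4 19.9-fold above Control, the latter 7.45-fold without GsMTx4 1. The difference was 4.57 ± 0.63 in DSS against Control (adjusted p = 0.00274). In GsMTx4 against DSS it was -1.40 ± 0.63 (adjusted p = 0.171; 95% interval -2.82 to 0.02), and in GsMTx4 against Control 3.17 ± 0.63 (adjusted p = 0.147; 1.75 to 4.59), which passed without GsMTx4 3 (3.83, adjusted p = 0.034).

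**Figure D3:**
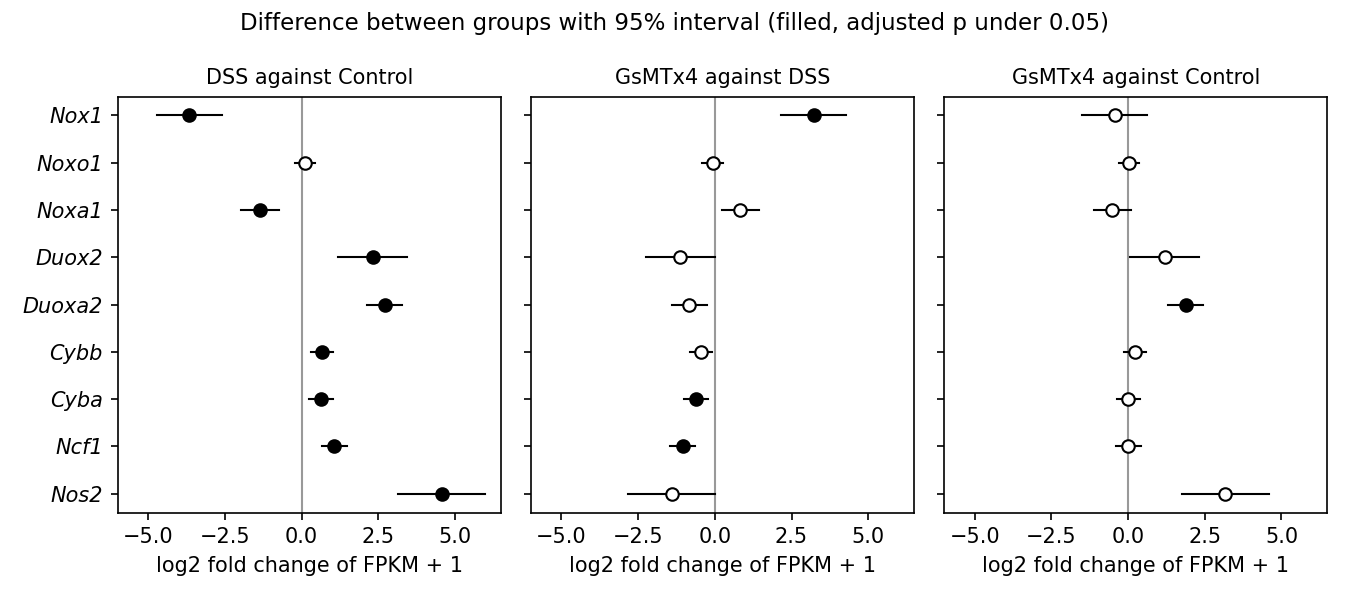
Log2 fold change of FPKM + 1 for each gene in the 3 comparisons, with 95% intervals (filled, adjusted p under 0.05; n = 3 libraries per group). In DSS against Control 8 genes are filled, in GsMTx4 against DSS Nox1, Cyba and Ncf1, and in GsMTx4 against Control Duoxa2; centring on pan-leukocyte markers, which moves the median of all genes by -0.79 in the first comparison, turns the sign of Cybb and Cyba there.

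The 3 GsMTx4 libraries differed among themselves. GsMTx4 1 had the highest Nos2, Duox2, Duoxa2 and Cybb and the lowest Nox1 and Noxa1 of its group, and it also had the highest S100a8 of its group. Without GsMTx4 1, GsMTx4 against DSS gave 5 of the 9 genes lower and 2 higher, where 5.39% of all tested genes were lower and 8.33% higher. Nos2 then differed by -2.26 (adjusted p = 0.00758), Duox2 by -1.69 (0.0318), Duoxa2 by -1.11 (0.0177), Cybb by -0.62 (0.0207) and Noxa1 by 1.13 (0.0188), while Cyba no longer passed (-0.52, adjusted p = 0.0963). Without GsMTx4 3, by contrast, the differences were -0.74 for Nos2 (adjusted p = 0.383), -0.50 for Duox2 (0.346), -0.68 for Duoxa2 (0.144) and -0.32 for Cybb (0.186). GsMTx4 1 was singled out after its values were seen. Hepatocyte transcripts also set GsMTx4 apart, summing to 33.0 to 53.2 FPKM against 19.99 to 25.7 in Control and 2.47 to 6.20 in DSS. Most of the Control sum was Ttr, at 19.1 to 24.5 FPKM, against 9.70 to 24.9 FPKM in GsMTx4. Alb was at 13.2 to 14.6 FPKM in GsMTx4 and 0.753 to 1.22 FPKM in Control. Apoa1, Fgb and Serpina3k reached 1 FPKM only in the GsMTx4 libraries, so they were tested only because they were high there. The counts that include them are therefore partly fixed by the filter. In GsMTx4 against DSS 5 of 5 were higher, and against Control 4 of 5, all but Ttr (-0.42, adjusted p = 0.711). Without GsMTx4 1, 2 or 3 these genes missed the filter and were not tested, which left 2 and 1 higher. Their part in the result was not tested.

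**Figure D4:**
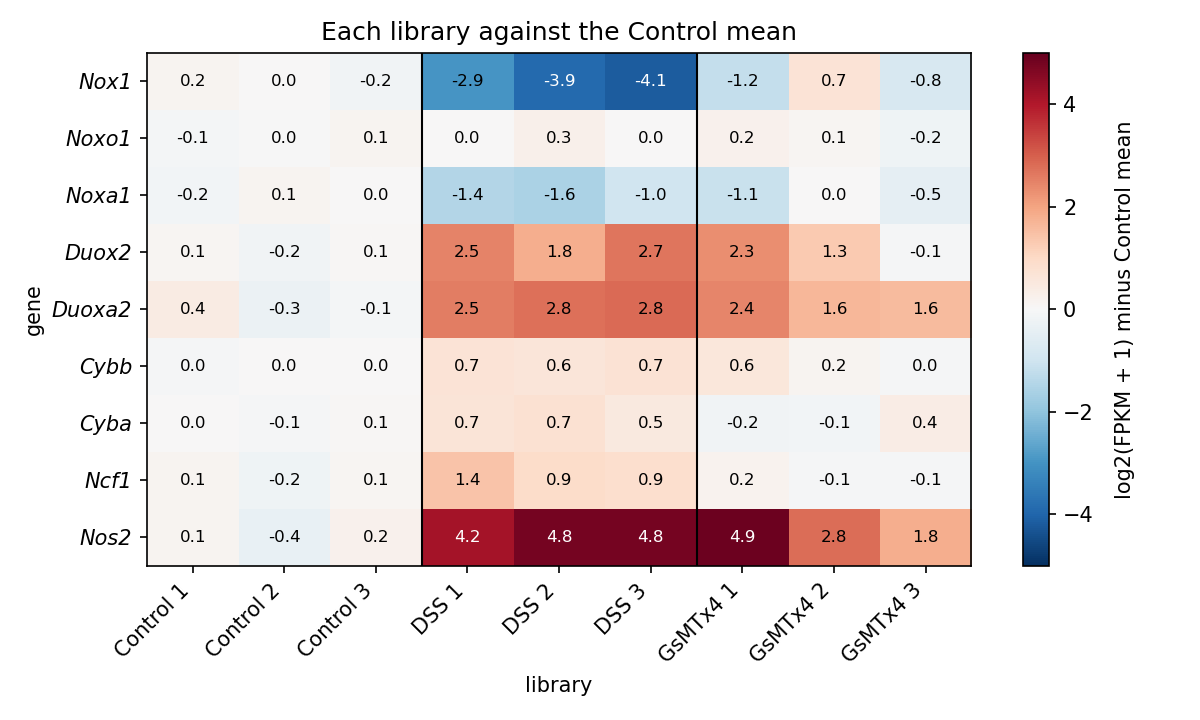
Each library's log2(FPKM + 1) minus the Control mean of the gene (red, above; blue, below; columns are libraries). GsMTx4 1 shows values near those of DSS for Nos2, Duox2 and Duoxa2, GsMTx4 3 shows Duox2 at the Control level, and Nox1 is lowest in the DSS columns.

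The order of levels changed between groups. In Control it ran from Cyba through Noxo1, Noxa1 and Nox1, then Duox2 and Duoxa2, to Cybb, Ncf1 and Nos2; neighbouring pairs overlapped between libraries only for Noxa1 with Nox1 and Duox2 with Duoxa2. In DSS, Cyba, Duoxa2, Duox2 and Nos2 stood above Noxo1, each overlapping the next, Cybb, Ncf1 and Noxa1 overlapped below it, and Nox1 was last. In GsMTx4 each gene from Cyba to Cybb overlapped its neighbour in the order, and Ncf1 was last. Cyba was 4.21 to 10.0 times Cybb, and Ncf1 0.487 to 1.16 times Cybb, over all 9 libraries.

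Other oxidase genes were read from a list of related subunits. Of 8 in the table, 5 were tested, 2 rose in DSS against Control and 3 fell in GsMTx4 against DSS. The median differences were 0.44 and -0.40. Of all tested genes, 6.41% rose in the first comparison and 5.62% fell in the second. Ncf4, a cytosolic subunit of the phagocyte oxidase, differed by 0.80 ± 0.19 (adjusted p = 0.0245) and -0.86 ± 0.19 (0.0241), and the GTPase gene Rac2, which switches that oxidase on, by 0.89 ± 0.23 (0.0292) and -0.91 ± 0.23 (0.0335). Cybc1, a chaperone gene of the membrane complex, differed by -0.40 ± 0.10 in GsMTx4 against DSS (0.0396). The 2 rises fell to 1 without Control 1 and to 0 without Control 2, Control 3, DSS 1 or DSS 3, and the 3 falls to 1 or 0 without any library but DSS 2 or GsMTx4 3. Nox4 and Duox1, at most 0.160 FPKM, were not tested.

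Nitric oxide synthesis needs arginine and the cofactor tetrahydrobiopterin. Of 13 genes listed for these, 10 were tested; 2 rose and 1 fell in DSS, and 1 was higher and 1 lower in GsMTx4 against DSS, with medians of -0.19 and 0.02; single calls among 10 genes are near the shares over all tested genes. Gch1, the first enzyme of tetrahydrobiopterin synthesis, was at 3.72 to 5.91 FPKM in Control, 10.5 to 14.7 FPKM in DSS and 5.15 to 7.58 FPKM in GsMTx4, and differed by 1.24 ± 0.19 (adjusted p = 0.0044) and -0.87 ± 0.19 (0.0217). Gchfr, its feedback regulator, rose by 1.62 ± 0.38 in DSS (0.0218), and Qdpr, which recycles the cofactor, fell by 0.89 (0.0477). Asl, an enzyme of arginine synthesis, was higher in GsMTx4 than in DSS by 0.46 ± 0.12 (0.0401). The Gch1 rise held with each library left out in turn; the others did not in every case (Gchfr without Control 1, 2 or 3; Qdpr without Control 1 or 2, DSS 1 or 3, or GsMTx4 2 or 3; Asl without any 1 library; the fall of Gch1 without DSS 1 or 2 or GsMTx4 2 or 3).

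Of 17 genes that handle superoxide and hydrogen peroxide, 15 were tested. In DSS 3 rose and 2 fell, and in GsMTx4 against DSS 1 was higher and 4 were lower. The medians were 0.05 and -0.01. Of all tested genes 6.41% were higher and 10.7% lower in the first comparison, and 6.66% and 5.62% in the second. The 2 falls in DSS and the 1 rise in GsMTx4 against DSS are near these shares. Sod3, the extracellular superoxide dismutase, was at 3.96 to 6.46 FPKM in Control, 11.9 to 23.1 FPKM in DSS and 3.70 to 6.52 FPKM in GsMTx4, and differed by 1.57 ± 0.27 (adjusted p = 0.00625) and -1.62 ± 0.27 (0.00801). Gpx3, the plasma glutathione peroxidase, differed by 1.24 ± 0.32 (0.0289) and -1.45 ± 0.32 (0.0208). Prdx3, the mitochondrial peroxiredoxin, differed by -0.68 ± 0.15 (0.016) and 0.94 ± 0.15 (0.00653), and catalase, Cat, by -0.71 ± 0.14 in DSS (0.0101). The counts moved by over 1.5 times in 4 leave-outs of the first comparison: the rises to 1 without Control 2 or DSS 2 and to 5 without GsMTx4 3, and the falls to 1 without Control 1 and to 0 without Control 2. The 4 falls in GsMTx4 against DSS became 2 without DSS 1, DSS 2, GsMTx4 2 or GsMTx4 3, and the 1 rise became 2 without GsMTx4 3. Gpx3 lost its rise without Control 1 or 2 or DSS 2 or 3 and its fall without DSS 2 or GsMTx4 2, Cat its fall without Control 2, and Prdx3 its fall without Control 1 or 2. The granulocyte peroxidase genes Mpo and Epx were at most 0.0239 FPKM.

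Among 12 inducers and signal transducers of Nos2 and Duox2, 10 were tested and 2 rose in DSS against Control. Of all tested genes, 6.41% rose there. The medians were 0.67 in DSS against Control and -0.24 in GsMTx4 against DSS. Il22, an epithelial barrier cytokine gene, was at most at 0.205 FPKM in Control, 4.66 to 7.24 FPKM in DSS, and 1.82, 3.63 and 0.120 FPKM in GsMTx4, and rose by 2.70 ± 0.43 (adjusted p = 0.00486). Socs3, a feedback inhibitor gene of cytokine signalling, rose by 2.97 ± 0.48 (0.00531). In GsMTx4 it was at 75.1, 86.3 and 18.02 FPKM, so GsMTx4 3 was the lowest for Socs3, Il22, Duox2 and Nos2. The 2 rises became 4 without DSS 1 or GsMTx4 1. In GsMTx4 against DSS 0 of the 10 passed by limma (1 lower at an unadjusted p under 0.05), and without GsMTx4 2 Il22 passed at -1.96 (adjusted p = 0.0311). In GsMTx4 against Control limma called 0 genes of the 4 related lists, and without GsMTx4 3 it called 2 inducers higher, Il22 at 1.76 (adjusted p = 0.034) and Socs3 at 2.71 (0.00122). At an unadjusted p under 0.05 it called 1 other oxidase gene and 3 inducers higher and 1 nitric oxide gene lower.

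**Figure D5:**
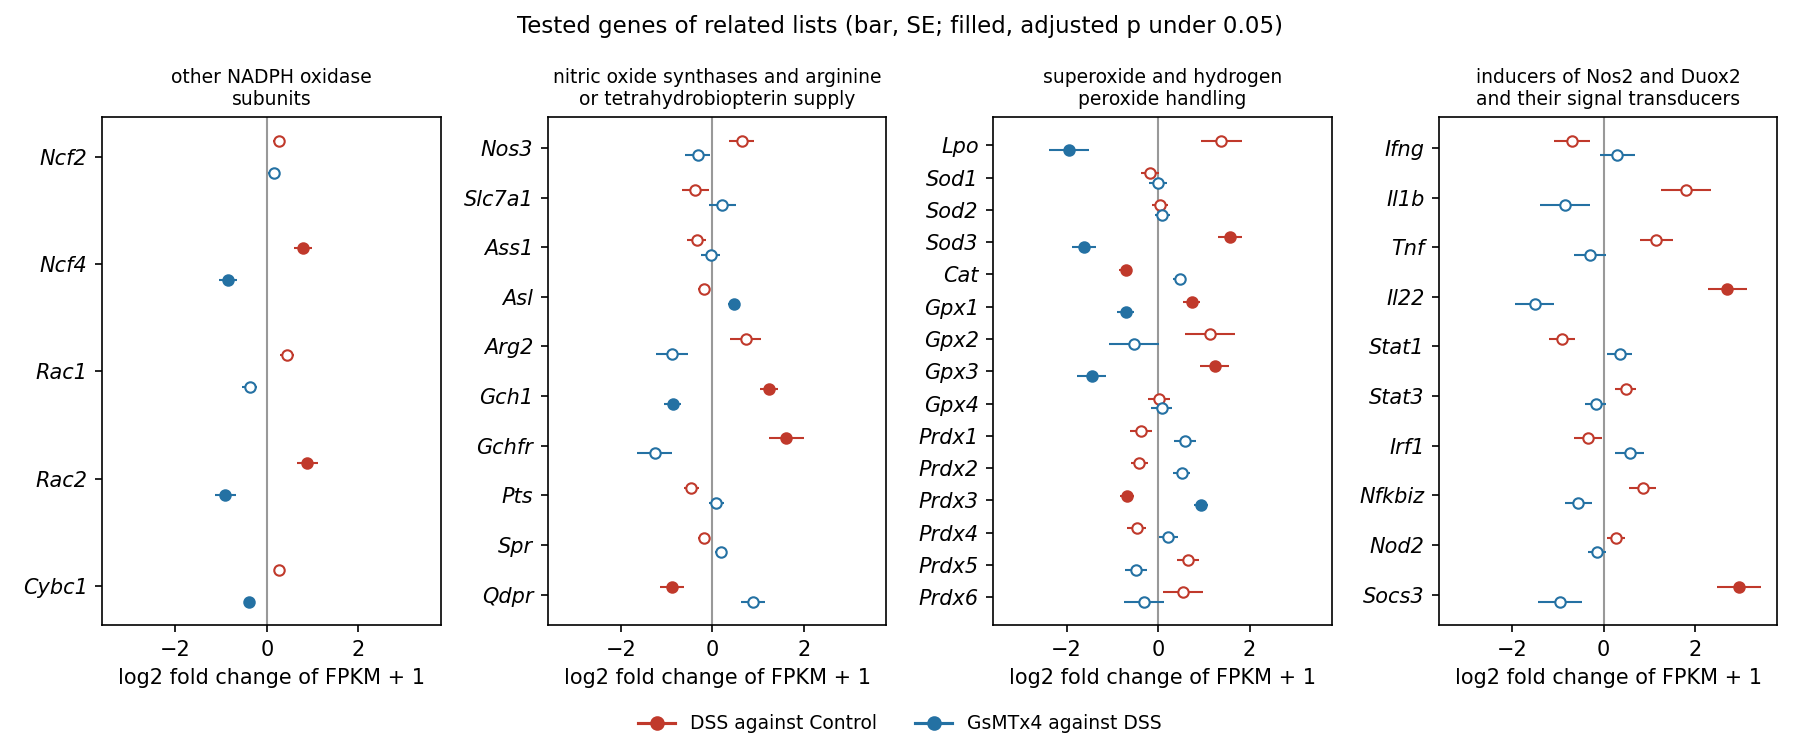
Log2 fold change of FPKM + 1 (± SE; filled, adjusted p under 0.05) of the tested genes of 4 related lists in DSS against Control (red) and GsMTx4 against DSS (blue). Sod3, Gpx1, Gpx3, Ncf4, Rac2 and Gch1 are filled higher and then lower, Prdx3 is filled lower and then higher, and the 2 comparisons share the DSS libraries.

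For 4 members, the 5 genes whose log2 values followed each most closely over the 9 libraries were taken by Pearson r, as a description only. For Nox1 they were Zfp704 (0.994), Akr1c14 (0.992), Sema5a (0.988), Eif2b1 (0.987) and Slc35a3 (0.987), and Noxa1 stood at 0.877. Duox2 was nearest to Zc3h12a (0.991), Rasgef1a, Lbp, Card14 and Slc5a9, and Cybb to Rdh10 (0.985), Adgrf1, Myo1c and Med27 (0.974). Among the members, Cybb stood at 0.96 with Duox2 and 0.913 with Nos2, and at 0.828 with Ncf1 and 0.555 with Cyba. For Nos2 they were Dirc2 (0.983), Duoxa2 (0.977), Krt84, Ptk6 and Anxa8 (0.965). The libraries fall into 3 groups that differ in these genes, and the coefficients carry that grouping.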

How the data were processed

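Total RNA of the colon was extracted with Trizol and sequenced on an Illumina instrument, per the labels' protocols. The authors deposited 1 table of FPKM values for 35315 genes in 9 libraries. Per the submitters' processing notes, cutadapt trimmed the reads, FastQC checked them and the build was GRCm38. The sources used here do not name the aligner or the program that made the FPKM. Of these genes 35196 had a symbol in GENCODE M21 of GRCm38 and 119 did not. FPKM is not a count, so no count model was used. Fragments per library were estimated from the FPKM of 1 fragment in genes with a single annotated transcript.

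Groups and replicate numbers came from the sample titles. Genes with at least 1 FPKM in at least 3 of 9 libraries (14360) were tested on log2(FPKM + 1), which understates the change of low genes. limma 3.58.1 in R 4.3.3 fitted 1 mean per group over all 9 libraries (6 residual degrees of freedom, empirical Bayes with trend), with Benjamini-Hochberg adjustment over all tested genes and a threshold of 0.05. The fit was also run on simulated libraries with independent normal noise and a limited set of changed genes. That setting differs from these data, where many genes moved, so no support is drawn from it. Named are all 9 members, up to 4 passing genes of each related list by smallest p, and for 4 members the 5 tested genes of largest Pearson r, 1 of which is not reported here. Other genes are given as counts or, for markers, as values beside a result, chosen after their values were seen. Members and lists were chosen with earlier results of these data known. Promoters came from RefSeq (GRCm38.p6) and were matched by symbol for 8 of 9 members; Nos2 was not matched. The alternatives were pseudocounts of 0.1 and 0.01, 2 other filters, TPM, median-of-ratios and quantile scaling, centring on pan-epithelial or pan-leukocyte markers, a fit of the compared groups only, no trend, the replicate number as a block, and each library left out. Figures were drawn with matplotlib 3.10.9.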

Additional observations from a re-analysis of the deposited data

How the results depend on the processing

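With 3 libraries per group, 1 library can decide a call, and low FPKM values rest on few fragments. The 3 comparisons called 2462, 1763 and 34 of all tested genes. Over 21 alternatives, 500 values of the 9 genes kept direction and side of the threshold, while 41 lost and 7 gained a call, and 19 changed sign; the cause was not tested. Calls of Nox1, Duoxa2 and Nos2 in DSS against Control, and of Nox1 in GsMTx4 against DSS, held under all of them.

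In DSS against Control the called genes were 1571 with a filter at a mean FPKM of 5 (fewer genes tested), 1320 with pan-epithelial and 11286 with pan-leukocyte centring, and 959 to 3082 with a library left out. Members higher were 3 with pan-leukocyte centring and 3 to 6 with a library left out, and members lower 1 to 2. In GsMTx4 against DSS the called genes were 1073 with no filter, 877 and 10612 with the 2 centrings, 587 with the compared groups only, and 658 to 1953 with a library left out. Members higher were 3 with pan-leukocyte centring and 1 to 2 with a library left out. Members lower were 1 with no filter, median-of-ratios scaling, pan-epithelial centring or the compared groups only, 0 with pan-leukocyte centring, and 1 to 5 with a library left out. In GsMTx4 against Control the called genes were 21 and 4 with pseudocounts of 0.1 and 0.01, 5 with the mean filter and 5 to 58 with a library left out. Members higher were 0 with the pseudocount of 0.01, no filter, the mean filter or the compared groups only, and 0 to 2 with a library left out.

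The share of higher among called genes, 37.4% in DSS against Control, was 60.7% with median-of-ratios, 50.1% with quantile or pan-epithelial and 1.83% with pan-leukocyte scaling; in GsMTx4 against DSS, 54.2% became 43.3% with median-of-ratios and 98.7% with pan-leukocyte scaling. In GsMTx4 against Control, 79.4% became 90.5% with a pseudocount of 0.1, 60% with the mean filter and 89.7% with quantile scaling.

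With pan-leukocyte centring, DSS against Control changed sign for Noxo1 (-0.69), Cybb (-0.11) and Cyba (-0.16), and GsMTx4 against DSS for Noxo1 (0.72), Cybb (0.34) and Cyba (0.18). Noxo1 in GsMTx4 against DSS ranged from -0.162 to 0.041 with a library left out. GsMTx4 against Control changed sign under TPM for Noxo1 (-0.072), Cyba (-0.09) and Ncf1 (-0.081) and under quantile scaling for Cyba (-0.02); with a library left out Noxo1 ranged from -0.058 to 0.145, Cyba from -0.17 to 0.12 and Ncf1 from -0.101 to 0.075.

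Deviations of same-numbered libraries from their group means correlated weakly (-0.233 to 0.1). With only 3 libraries per group, such correlations cannot decide whether the numbers pair the samples. With the replicate block, 1078 genes were called in GsMTx4 against DSS with 1 member lower, and the Cyba calls were lost (adjusted p = 0.0717 and 0.0908).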
